A study of Mus musculus with 12 samples.

Results

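The expression of 48 genes of fatty acid oxidation and ketogenesis was followed in the livers of mice under caloric restriction (CR). The members were the genes of the RNA-Seq table whose symbol is on a list of 48 symbols, and all 48 were found among the 24537 genes of the table. By the place of their main product, 20 members were taken as mitochondrial, 16 as peroxisomal, 2 (Crat and Acad11) as present in both compartments, and 10 as belonging to uptake, activation, the cytosol or fuel switching. Ketogenesis entered the list through Acat1 and Bdh1, which act at its first and last steps.

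Bulk RNA was sequenced from the livers of 12 male C57Bl/6J mice, which were housed singly and were 6 weeks old at the start. Con mice were fed ad libitum and CR mice received 30% less food. Livers were taken at day 25 and at day 30 of the intervention, the days around which the study placed a slowing of hepatic protein synthesis. This gave 4 groups of 3 mice, each a different animal, namely Con at day 25, CR at day 25, Con at day 30 and CR at day 30. All mice were labeled with heavy water before sacrifice. CR mice ate a fortified form of the diet, given daily at a set hour. The amount, the formula and the timing of the food therefore cannot be told apart. No member was deleted or overexpressed in any group.

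Fatty acids are taken up by the hepatocyte, activated to acyl-CoA, and passed through the carnitine shuttle into mitochondria, where beta-oxidation removes acetyl units that feed the citric acid cycle or ketone body synthesis. Peroxisomes shorten very long, branched and side-chain substrates, among them the precursors of bile acids, and hand medium-chain products on as carnitine esters or, after hydrolysis by acyl-CoA thioesterases, as free acids. Many genes of both routes are known targets of the nuclear receptor PPARA, which is active in the fasted liver.

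Deposited values were FPKM, reads on the exons of a gene scaled by exon length and by sequencing depth. Levels of different genes can be set side by side only roughly. The aligner did not split reads at exon junctions, and some members share sequence with other genes. The depth recovered from the steps of low FPKM was 15748934 to 23345054 reads per library, and every member had at least 33 reads in each library. Genes that reached 1 FPKM in 3 or more libraries were tested, which kept all 48 members and 10593 genes in all. Hepatocyte markers (Alb, Ttr, Apoa1, Apob and Apoc3) summed to 44787 to 51196 FPKM in Con and 49811 to 53849 FPKM in CR mice at day 25, and to 37445 to 46480 against 53526 to 64854 FPKM at day 30, where the diets did not overlap, whereas lymphocyte and adipocyte markers summed to at most 1.47 and 6.02 FPKM. At day 30 Alb was called higher and Apob lower in CR mice, and Alb took 9.58% to 11.9% of all FPKM in CR against 6.23% to 7.89% in Con mice (8.27% to 9.67% against 6.69% to 8.79% at day 25), and its part in the members' FPKM was not tested. Of the 8 Kupffer cell and macrophage markers, 6 were lower in CR mice at day 25, with sums of 39.2 to 47.6 FPKM against 61.5 to 103 FPKM in Con mice, and 1 (Marco) was higher at day 30. The Con mice of day 30 are named by their columns (Con10, Con11 and Con12), because the labels do not tie these to a replicate number. Extreme values were spread over several mice, with CR mouse 2 of day 25 the highest of the 12 for 14 members, Con mouse 3 of day 25 for 13 and Con11 for 8, and with CR mouse 3 of day 30 the lowest for 13 and Con11 for 6.

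Levels of the members differed widely. Fabp1, the fatty acid binding protein of liver cytosol, had the highest mean FPKM over the 12 mice (4117), followed by Slc27a2 (626), Acaa2 (490.3), Acsl1 (318) and Etfb (316). The lowest means were those of Pdk4 (1.68), Acot2 (3.16) and Abcd2 (6.02). Apart from Acot2 and Hadhb (13.6), the mitochondrial members had means from 54.8 FPKM (Bdh1) up to that of Acaa2. Etfb and Hadhb share sequence with pseudogenes, so their levels are uncertain.

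Over both days, CR lowered the peroxisomal carnitine transferase gene Crot to 0.304 of its Con level and Acox2 and Hsd17b4, of the branched-chain route, to 0.533 and 0.82, and raised the thioesterases Acot3 (4.31-fold), Acot4 (1.73-fold) and Acot1 (1.44-fold). Among mitochondrial members, Echs1, Acaa2, Etfb, Acadl, Etfa and Hadh rose by 1.15-fold to 1.32-fold, while Etfdh and Cpt2 fell to 0.739 and 0.766 of their Con level. With quantile normalization between libraries, Etfb, Acadl, Etfa and Hadh were no longer called. Among uptake and fuel-switch genes, Pdk4 and Cd36 rose and Acsl1, Ucp2 and Slc27a2 fell. With median-ratio scaling between libraries, Slc27a2 was no longer called. Folds here are on the scale of log2(FPKM + 1), which understates the change of genes with low FPKM.

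In the limma model with day as a covariate (6 Con against 6 CR mice), 24 of the 48 members (50%) had a Benjamini-Hochberg adjusted p under 0.1, 14 higher and 10 lower in CR mice, beside 40.6% of the 10593 genes tested (14.5% higher and 26.1% lower). At day 25 alone, 6 members (12.5%) passed, 3 in each direction, beside 14.9% of all genes (5.6% higher and 9.34% lower). At day 30, 17 members (35.4%) passed, 7 higher and 10 lower, beside 24.7% of all genes (8.33% higher and 16.4% lower). The values of CR and Con mice did not overlap in 13 members at day 25 (7 above and 6 below), beside 28.2% of all genes, and in 20 at day 30 (12 above and 8 below), beside 36.4%. The share of members called therefore lay near the background at day 25 and above it at day 30 and over both days, and no test of these shares was run. With a change of at least 2-fold (1 on the log2 scale) required as well, 2 members passed at day 25, 6 at day 30 and 2 over both days, beside 1.48%, 2.21% and 1.66% of all genes. The count at day 25 fell to 3 (6.25%) without Con mouse 1 or 2 of that day and to 2 (4.17%) without CR mouse 1 or 3, beside 8.43% to 11.8% of all genes in these fits. That at day 30 fell to 11 (22.9%; 6 higher, 5 lower) without Con11, beside 17.7% of all genes, and to 9 (18.8%; 4 higher, 5 lower) without CR mouse 1, beside 14.1%. With median-ratio scaling between libraries the split was 6 higher and 3 lower at day 25 and 12 higher and 6 lower at day 30, and with quantile normalization it was 10 higher and 12 lower over both days.

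**Figure D1:**
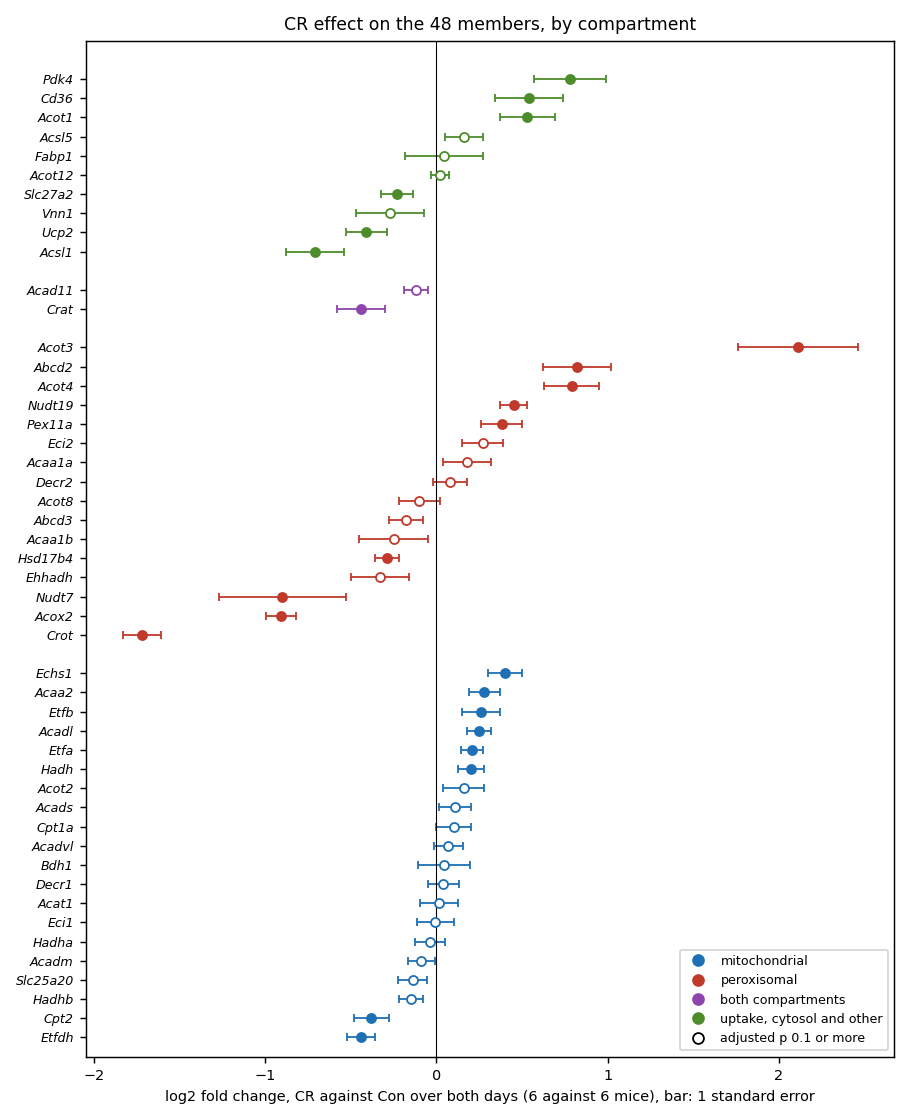
Log2 fold change of CR against Con over both days for each of the 48 members (horizontal axis), ordered by size within 4 classes (vertical axis). Points are estimates from 6 Con and 6 CR mice, bars are 1 standard error, and filled points have an adjusted p under 0.1. The peroxisomal members run from -1.72 (Crot) to 2.11 (Acot3), the mitochondrial ones from -0.44 (Etfdh) to 0.40 (Echs1).

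Over both days the log2 fold changes of the 20 mitochondrial members had a median of 0.058, and those of the 16 peroxisomal members a median of -0.012, beside -0.054 for all genes tested. Without regard to sign, the median change was 0.14 for mitochondrial members, 0.36 for peroxisomal members, 0.34 for the 10 members of the uptake, activation, cytosol and fuel-switch class, and 0.16 for all genes. A log2 fold change beyond 0.5 in either direction was found in 6 of 16 peroxisomal and in 0 of 20 mitochondrial members over both days, in 6 and 0 at day 25, and in 7 and 2 at day 30. In the uptake, activation, cytosol and fuel-switch class it was found in 4 of 10 members in each of these comparisons, so the wider spread was not particular to peroxisomal members. Genes are not replicates of a condition, so these medians and counts are a description. Within single mice the difference between the median deviations of the 2 classes ran from -0.099 to 0.13 log2 units, and CR and Con mice overlapped in it at both days. Counting Crat and Acad11 as peroxisomal moved the difference of the class medians from 0.044 to 0.14 at day 30. Over both days it moved from 0.07 to 0.17. Leaving out Acaa1a, Acaa1b and Acot1 to Acot4, taken as members with near-identical copies, moved it to 0.14 at day 30 and 0.19 over both days. At day 30, leaving out Con11 gave -0.031. Leaving out CR mouse 3 of day 25 turned the day 25 difference from 0.062 to -0.045.

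Among the peroxisomal oxidation genes, Crot encodes carnitine octanoyltransferase, which turns medium-chain acyl-CoA made in peroxisomes into carnitine esters. Crot (mm10, chr5:8966048-8997146, minus strand) was at 209, 204 and 205 FPKM in the Con mice and at 74.4, 80.2 and 57.5 FPKM in the CR mice at day 25. At day 30 it was at 214, 239.8 and 199.7 FPKM in Con mice and at 49.6, 68.3 and 57.2 FPKM in CR mice. Every CR mouse lay far below every Con mouse. The log2 fold change was -1.54 ± 0.14 (SE) at day 25 (adjusted p = 0.000281), -1.89 ± 0.14 at day 30 (adjusted p = 1.68e-05) and -1.72 ± 0.11 over both days (adjusted p = 1.24e-06).

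Acox2 encodes the oxidase that opens the shortening of branched-chain acyl-CoA and of the side chain of bile acid precursors. Its transcript lies at chr14:8225511-8258839 on the minus strand, and it was at 95.2, 94.7 and 104 FPKM in Con mice and at 46.3, 59.1 and 61.3 FPKM in CR mice at day 25. At day 30, Con mice had 87.7, 78.9 and 84.1 FPKM and CR mice 38.7, 47.4 and 38.4 FPKM. The groups did not overlap at either day. Acox2 fell by 0.82 ± 0.12 log2 units at day 25 (adjusted p = 0.0025), by 1.00 ± 0.12 at day 30 (adjusted p = 0.0004) and by 0.91 ± 0.087 over both days (adjusted p = 1.79e-05).

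Hsd17b4, the bifunctional enzyme that carries out the next 2 steps on the same substrates, ranged from 175 to 207 FPKM in the 6 Con mice (median 179) and from 138 to 167 FPKM in the 6 CR mice (median 154). All CR mice lay below all Con mice. The fall was 0.24 ± 0.10 log2 units at day 25 (adjusted p = 0.179), 0.34 ± 0.10 at day 30 (adjusted p = 0.0448) and 0.29 ± 0.071 over both days (adjusted p = 0.00876). The call at day 30 was lost without Con11 (-0.28, adjusted p = 0.144), without CR mouse 1 (-0.32, 0.131) or without CR mouse 3 (-0.30, 0.116). Median-ratio scaling between libraries also ended it (-0.26, adjusted p = 0.103). The call over both days was kept whichever of the 12 mice was left out. Crot, Acox2 and Hsd17b4 were the members with all 6 CR mice below all 6 Con mice, and Etfa, Acot3 and Nudt19 those with all CR mice above, 6 of 48 (12.5%) beside 12.5% of all genes tested.

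The 250 bases before the start of Crot and of Acox2, the peroxisomal members that fell most over both days, are shown from RefSeq (GRCm38.p6, the mm10 assembly), 5' to 3' on the strand of the gene. AGGTCA, the nuclear receptor half-site, was searched on both strands and would be in capitals. Neither window held it.
Crot (chr5:8997147-8997396, - strand): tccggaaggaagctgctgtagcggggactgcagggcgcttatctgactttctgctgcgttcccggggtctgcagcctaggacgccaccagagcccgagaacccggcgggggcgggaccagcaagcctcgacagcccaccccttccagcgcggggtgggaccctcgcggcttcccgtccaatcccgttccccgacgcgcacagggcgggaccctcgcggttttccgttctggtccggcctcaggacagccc
Acox2 (chr14:8258840-8259089, - strand): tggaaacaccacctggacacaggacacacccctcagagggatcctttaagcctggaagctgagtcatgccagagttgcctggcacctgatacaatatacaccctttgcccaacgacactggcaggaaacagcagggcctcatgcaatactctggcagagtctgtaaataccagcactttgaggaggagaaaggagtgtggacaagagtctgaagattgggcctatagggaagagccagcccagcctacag

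Nudt7 and Nudt19 encode peroxisomal diphosphatases that degrade coenzyme A and its esters, and they moved in opposite directions. Nudt7 was at 129, 124 and 84.8 FPKM in Con mice and 109, 156 and 41.8 FPKM in CR mice at day 25, and at 148, 496 and 199.7 FPKM in Con mice and 61.7, 126 and 80.3 FPKM in CR mice at day 30. The value of 496 FPKM was that of Con11. The log2 fold change was -0.30 ± 0.49 at day 25 (adjusted p = 0.756), -1.51 ± 0.49 at day 30 (adjusted p = 0.0528) and -0.90 ± 0.37 over both days (adjusted p = 0.0799). Without Con11 it fell by 1.00 at day 30 (adjusted p = 0.185) and by 0.61 over both days (adjusted p = 0.159), and the call over both days was lost without any of 7 mice (adjusted p up to 0.174). At day 30 the call was also lost without CR mouse 1 (-1.27, adjusted p = 0.183) or CR mouse 3 (-1.46, 0.112), and leaving out CR mouse 3 at day 25 turned the day 25 value to 0.24.

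Nudt19 ranged from 18.7 to 20.7 FPKM in the 6 Con mice (median 19.8) and from 21.6 to 32.1 FPKM in the 6 CR mice (median 28.1). It rose by 0.30 ± 0.10 log2 units at day 25 (adjusted p = 0.0878), 0.60 ± 0.10 at day 30 (adjusted p = 0.00247) and 0.45 ± 0.08 over both days (adjusted p = 0.00118). The day 25 call was close to the threshold and was lost when any of 9 mice was left out, with an adjusted p of up to 0.295.

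The thioesterases Acot1 to Acot4 lie side by side on chromosome 12 (mm10, plus strand) and split acyl-CoA into free acid and coenzyme A, Acot1 in the cytosol, Acot2 in mitochondria, and Acot3 and Acot4 in peroxisomes. Acot3 (chr12:84052144-84060400) was at 5.49, 8.52 and 20.5 FPKM in Con mice and 26.4, 21.3 and 41.5 FPKM in CR mice at day 25, and at 7.70, 2.25 and 5.37 FPKM in Con mice and 45.1, 42.1 and 28.6 FPKM in CR mice at day 30. The lowest CR value, 21.3 FPKM, lay above the highest Con value. The rise was 1.43 ± 0.43 log2 units at day 25 (adjusted p = 0.0563), 2.78 ± 0.43 at day 30 (adjusted p = 0.0014) and 2.11 ± 0.35 over both days (adjusted p = 0.000705). At day 25 the call was lost without Con mouse 1 (1.05, adjusted p = 0.191), Con mouse 2 (1.33, 0.134), CR mouse 1 (1.49, 0.112) or CR mouse 3 (1.17, 0.186).

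Acot4 (chr12:84038379-84044723) ranged from 8.79 to 20.5 FPKM in Con mice (median 14.6) and from 20.1 to 29.8 FPKM in CR mice (median 25.5). Its log2 fold change was 0.55 ± 0.22 at day 25 (adjusted p = 0.139, and 0.0875 with the replicate number as a block), 1.04 ± 0.22 at day 30 (adjusted p = 0.00804) and 0.79 ± 0.16 over both days (adjusted p = 0.003). Acot1 (chr12:84009502-84017669) was at 12.1, 12.0 and 19.1 FPKM in Con mice and 20.7, 15.3 and 33.3 FPKM in CR mice at day 25, and at 14.1, 12.3 and 10.995 FPKM in Con mice and 19.4, 17.3 and 15.4 FPKM in CR mice at day 30. The 2 diets overlapped at day 25 and not at day 30. Acot1 rose by 0.53 ± 0.16 log2 units over both days (adjusted p = 0.026), with 0.61 ± 0.24 at day 25 (adjusted p = 0.133, and 0.0145 with the block) and 0.45 ± 0.24 at day 30 (adjusted p = 0.215). Acot2 stayed between 2.21 and 4.08 FPKM in the 12 mice and did not pass the test at either day.

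These 4 transcripts share sequence. Of all 100-base windows of Acot1, 21.9% also occurred in Acot2, Acot3 or Acot5, and the share was 17.1% for Acot2 and 0.36% for Acot4. For Acot3 it was 14.3%, shared with Gm49366, Acot1 and Acot5. The Acot3 share was counted on a transcript of 3431 bases that was not matched to the deposited one of 2683 bases. Reads from the shared stretches could have been assigned to another gene, least so for Acot4. The 250 bases before the starts of Acot1, Acot3 and Acot4 are printed because the 3 neighbors rose together. AGGTCA is in capitals, read on the plus strand as TGACCT where it lies on the minus strand, and was found in Acot4 alone, 13 bases before the start.
Acot1 (chr12:84009252-84009501, + strand): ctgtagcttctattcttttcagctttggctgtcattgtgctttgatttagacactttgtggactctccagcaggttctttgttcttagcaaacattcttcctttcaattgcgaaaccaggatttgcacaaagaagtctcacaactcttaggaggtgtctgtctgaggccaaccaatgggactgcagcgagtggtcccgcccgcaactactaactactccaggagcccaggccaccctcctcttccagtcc
Acot3 (chr12:84051894-84052143, + strand): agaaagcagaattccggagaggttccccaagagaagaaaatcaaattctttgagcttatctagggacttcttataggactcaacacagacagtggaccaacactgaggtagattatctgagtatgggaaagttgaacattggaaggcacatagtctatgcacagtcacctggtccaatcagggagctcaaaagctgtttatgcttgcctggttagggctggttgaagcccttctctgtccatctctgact
Acot4 (chr12:84038129-84038378, + strand): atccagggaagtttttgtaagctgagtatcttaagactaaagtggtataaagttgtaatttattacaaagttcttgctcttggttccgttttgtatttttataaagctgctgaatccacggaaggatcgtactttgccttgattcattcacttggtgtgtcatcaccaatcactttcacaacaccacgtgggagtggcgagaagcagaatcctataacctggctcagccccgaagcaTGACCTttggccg

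**Figure D2:**
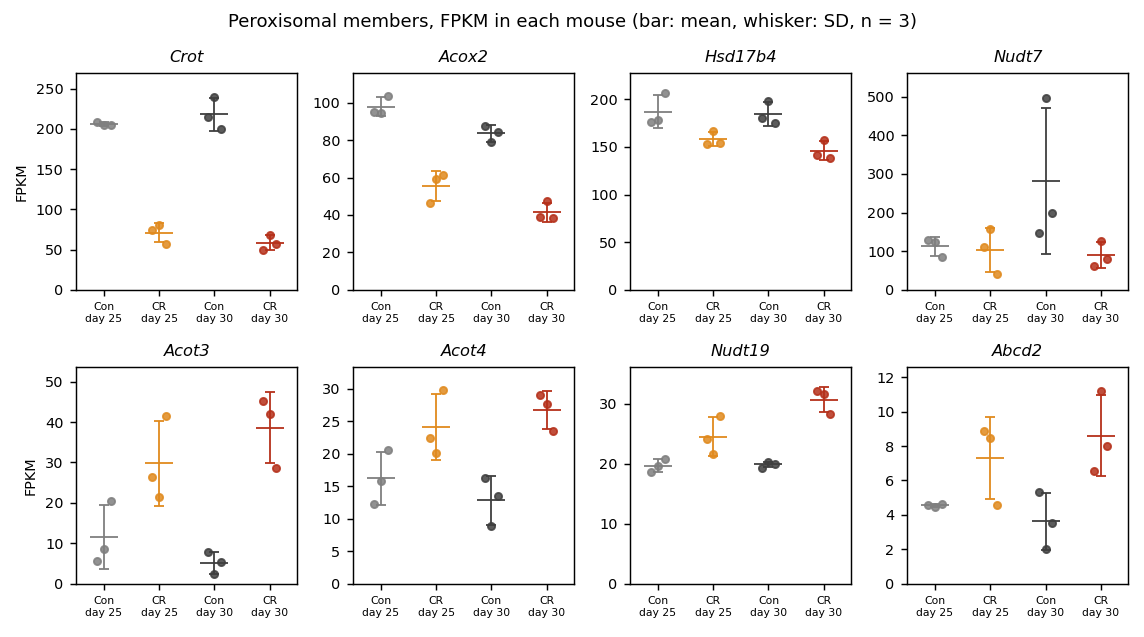
FPKM (vertical axes, from 0) of 8 peroxisomal members in each mouse of the 4 groups (horizontal axes). Points are mice, the horizontal bar is the mean and the whisker the SD of 3 mice. Crot and Acox2 are lower in every CR mouse, Acot3 and Nudt19 higher in every CR mouse, and the Nudt7 mean of Con mice at day 30 is set by 1 mouse at 496 FPKM.

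Of the other peroxisomal members, Abcd2, a transporter of very long chain acyl-CoA, was at 4.44 to 4.63 FPKM in Con mice and 4.58 to 8.89 FPKM in CR mice at day 25, and at 1.99 to 5.33 FPKM in Con mice and 6.58 to 11.2 FPKM in CR mice at day 30. It rose by 1.09 ± 0.27 log2 units at day 30 (adjusted p = 0.0172) and by 0.82 ± 0.20 over both days (adjusted p = 0.00815), beside 0.54 ± 0.27 at day 25 (adjusted p = 0.238). Pex11a, which takes part in the division of peroxisomes, rose by 0.38 ± 0.12 over both days (adjusted p = 0.0274), with a median of 38.9 FPKM in Con and 50.7 FPKM in CR mice. At day 25 its rise was 0.49 ± 0.17 (adjusted p = 0.0948), a call that was lost when any of 9 mice, all 6 of that day among them, was left out (adjusted p up to 0.259), and at day 30 it was 0.28 ± 0.17 (adjusted p = 0.289).

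Of the straight-chain peroxisomal genes, Ehhadh, Acaa1a and Acaa1b showed no call with all 12 mice in the fit. Ehhadh, the bifunctional enzyme of that route, was at 84.4, 127 and 182 FPKM in Con mice and 87.0, 77.2 and 89.4 FPKM in CR mice at day 25, and at 90.7, 149.9 and 108 FPKM in Con mice and 109, 111 and 100.4 FPKM in CR mice at day 30. The Con mice spread more widely than the CR mice, and the diets overlapped at both days (log2 fold change -0.56 ± 0.23, adjusted p = 0.158, and -0.092 ± 0.23, adjusted p = 0.819). The day 25 value was -0.84 without Con mouse 1, a call (adjusted p = 0.0355), and -0.29 without Con mouse 3. The thiolase Acaa1a was at 53.5, 83.5 and 84.7 FPKM in Con mice and 79.5, 107 and 74.8 FPKM in CR mice at day 25, and at 71.6, 66.3 and 54.6 FPKM against 72.3, 81.9 and 56.2 FPKM at day 30. Its close relative Acaa1b was at 178, 279 and 322 FPKM in Con mice and 236, 318 and 201 FPKM in CR mice at day 25, and at 260.4, 447 and 244 FPKM against 240.5, 275 and 162 FPKM at day 30, where Con11 held the 447 FPKM.

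The log2 fold changes of Acaa1a were 0.24 ± 0.20 and 0.12 ± 0.20 at the 2 days, and those of Acaa1b -0.03 ± 0.29 and -0.47 ± 0.29, with adjusted p from 0.282 to 0.966. Each shared 21.6% to 22.6% of its 100-base windows with the other, so their separate values are uncertain. Eci2, Decr2, Abcd3 and Acot8, which serve unsaturated acids, import and chain release, likewise did not pass at either day or over both, with the smallest adjusted p for Eci2 (0.103 over both days). Acad11, found in both compartments, ranged from 113 to 154 FPKM in the 12 mice and was not called.

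In the mitochondrial entry system, Cpt1a, the carnitine palmitoyltransferase at which entry is controlled, was at 135, 160.0 and 214 FPKM in Con mice and 185, 192 and 164 FPKM in CR mice at day 25, and at 144, 122 and 121 FPKM in Con mice and 126, 143 and 143 FPKM in CR mice at day 30. The diets overlapped at both days, with log2 fold changes of 0.11 ± 0.15 and 0.10 ± 0.15 (adjusted p = 0.702 and 0.704). Cpt2, which reforms acyl-CoA on the inner membrane, was at 61.2, 68.9 and 76.5 FPKM in Con mice and 59.99, 65.5 and 58.3 FPKM in CR mice at day 25, and at 65.9, 70.9 and 55.3 FPKM in Con mice and 38.5, 47.0 and 39.4 FPKM in CR mice at day 30. CR mice overlapped with Con mice at day 25 and lay below them at day 30.

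Cpt2 fell by 0.61 ± 0.12 log2 units at day 30 (adjusted p = 0.00668) and by 0.38 ± 0.10 over both days (adjusted p = 0.0137), beside 0.16 ± 0.12 at day 25 (adjusted p = 0.458). The day 30 call was kept whichever mouse was left out. Slc25a20, the translocase between the 2 transferases, ranged from 55.8 to 88.9 FPKM and was not called. Crat, the carnitine transferase for short acyl groups in both compartments, fell by 0.44 ± 0.14 over both days (adjusted p = 0.0296) and by 0.57 ± 0.20 at day 30 (adjusted p = 0.0671), where CR mice had 6.99 to 9.06 FPKM and Con mice 8.24 to 15.3 FPKM. That day 30 call was lost without Con10 (-0.40, adjusted p = 0.215), Con11 (-0.50, 0.179), CR mouse 1 (-0.51, 0.195) or CR mouse 3 (-0.52, 0.15). Median-ratio scaling (-0.50, adjusted p = 0.104) and quantile normalization (-0.50, 0.106) also ended it.

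The first step of the mitochondrial cycle is run by acyl-CoA dehydrogenases of different chain length. Acadl, the long-chain form, was at 112, 103 and 122 FPKM in Con mice and 135, 128 and 129 FPKM in CR mice at day 25, and at 100.3, 117 and 99.8 FPKM in Con mice and 127, 138 and 120.5 FPKM in CR mice at day 30. CR mice lay above Con mice at both days. The rise was 0.25 ± 0.07 log2 units over both days (adjusted p = 0.0162), 0.28 ± 0.10 at day 30 (adjusted p = 0.0825) and 0.22 ± 0.10 at day 25 (adjusted p = 0.212). The day 30 call was lost when any of 6 mice was left out, with an adjusted p of up to 0.217, and quantile normalization ended the call over both days (0.16, adjusted p = 0.139).

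Acadm, the medium-chain dehydrogenase, was at 173, 161 and 208 FPKM in Con mice and 156, 164 and 173 FPKM in CR mice at day 25, and at 163, 148 and 148 FPKM against 141, 166 and 139 FPKM at day 30. The log2 fold changes were -0.13 ± 0.12 and -0.047 ± 0.12 (adjusted p = 0.536 and 0.814). Acadvl and Acads, for very long and short chains, ranged from 161 to 225 FPKM and from 53.3 to 85.0 FPKM and were not called.

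Echs1, the hydratase of the second step, was at 104, 138 and 118 FPKM in Con mice and 141, 168 and 142 FPKM in CR mice at day 25, and at 121, 98.8 and 117 FPKM in Con mice and 167, 170.3 and 130.1 FPKM in CR mice at day 30. CR mice lay above Con mice at both days. Its rise was the largest of the mitochondrial members, 0.40 ± 0.099 over both days (adjusted p = 0.00933), with 0.47 ± 0.14 at day 30 (adjusted p = 0.0444) and 0.33 ± 0.14 at day 25 (adjusted p = 0.18). The day 30 call was lost without Con11 (0.38, adjusted p = 0.148), CR mouse 1 (0.41, 0.151) or CR mouse 2 (0.40, 0.126).

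Acaa2, the mitochondrial thiolase, was at 397, 500.2 and 456 FPKM in Con mice and 511, 622 and 493 FPKM in CR mice at day 25, and at 442, 457 and 400.1 FPKM in Con mice and 563, 584 and 460.4 FPKM in CR mice at day 30. The groups overlapped at day 25, and at day 30 the lowest CR mouse was just above the highest Con mouse. It rose by 0.28 ± 0.091 over both days (adjusted p = 0.0318), and was not called at day 25 (0.26 ± 0.13, adjusted p = 0.25) or day 30 (0.30 ± 0.13, adjusted p = 0.146). Hadh, the dehydrogenase for shorter 3-hydroxyacyl-CoA, rose by 0.20 ± 0.075 over both days (adjusted p = 0.0625), a call lost when any of 5 mice was left out (0.16 to 0.19, adjusted p up to 0.135). Quantile normalization also ended it (0.12, adjusted p = 0.109).

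Hadha and Hadhb are the 2 subunits of the trifunctional protein, which runs the last 3 steps on long chains. Hadha was at 92.5, 103 and 116 FPKM in Con mice and 106, 115 and 91.8 FPKM in CR mice at day 25, and at 96.6, 103 and 85.0 FPKM against 81.6, 99.2 and 87.3 FPKM at day 30, with log2 fold changes of 0.00662 ± 0.13 and -0.084 ± 0.13 (adjusted p = 0.982 and 0.686). Hadhb ranged from 11.02 to 15.5 FPKM, was not called, and shared 53.2% of its 100-base windows with the pseudogenes Gm13910 and Gm9108, so its level is uncertain. The genes stand head to head on chromosome 5, and the 250 bases before each start largely overlap. The window of Hadhb, printed for this shared stretch, held no AGGTCA.
Hadhb (chr5:30155003-30155252, + strand): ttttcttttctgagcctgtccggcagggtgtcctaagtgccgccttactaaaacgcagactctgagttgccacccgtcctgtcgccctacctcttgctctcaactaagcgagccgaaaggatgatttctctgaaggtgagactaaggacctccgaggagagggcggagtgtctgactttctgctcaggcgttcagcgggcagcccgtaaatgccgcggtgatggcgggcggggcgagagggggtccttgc

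The electron transfer flavoprotein takes electrons from the dehydrogenases and passes them to Etfdh, the oxidoreductase that feeds them into the respiratory chain. Its subunit genes Etfa and Etfb rose over both days by 0.21 ± 0.064 (adjusted p = 0.0252) and 0.26 ± 0.11 (adjusted p = 0.0802), with medians of 146 and 278 FPKM in Con mice and 164 and 352 FPKM in CR mice. Etfb shared 65.2% of its windows with the pseudogene Gm45233, and its call was lost when any of 6 mice was left out (adjusted p up to 0.168). Quantile normalization ended the calls of Etfa (0.13, adjusted p = 0.11) and Etfb (0.17, adjusted p = 0.1). Etfdh went the other way.

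Etfdh was at 121, 119 and 147 FPKM in Con mice and 99.5, 108 and 91.2 FPKM in CR mice at day 25, and at 111, 119 and 106 FPKM in Con mice and 72.5, 89.6 and 75.4 FPKM in CR mice at day 30. CR mice lay below Con mice at both days. It fell by 0.37 ± 0.12 log2 units at day 25 (adjusted p = 0.0715), 0.50 ± 0.12 at day 30 (adjusted p = 0.0149) and 0.44 ± 0.082 over both days (adjusted p = 0.00165). The day 25 call was lost without Con mouse 1 (-0.41, adjusted p = 0.103), Con mouse 3 (-0.28, 0.236), CR mouse 1 (-0.38, 0.147) or CR mouse 3 (-0.31, 0.218). Eci1 and Decr1, which prepare unsaturated acids for the cycle, ranged from 71.2 to 117 FPKM and from 53.1 to 73.5 FPKM and were not called.

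Both ketogenesis members overlapped between diets at both days. Acat1, whose thiolase joins 2 acetyl units, was at 112, 99.1 and 116 FPKM in Con mice and 118, 122 and 104 FPKM in CR mice at day 25, and at 105, 94.7 and 85.0 FPKM against 89.8, 122 and 71.2 FPKM at day 30. Bdh1, which reduces acetoacetate to beta-hydroxybutyrate, was at 49.1, 52.6 and 58.9 FPKM in Con mice and 60.7, 77.7 and 42.1 FPKM in CR mice at day 25, and at 58.4, 60.5 and 40.8 FPKM against 44.5, 66.8 and 45.0 FPKM at day 30. The log2 fold changes were 0.066 ± 0.17 and -0.035 ± 0.17 for Acat1 and 0.13 ± 0.22 and -0.036 ± 0.22 for Bdh1, with adjusted p from 0.779 to 0.927. The standard errors of 0.17 and 0.22 limit what could have been seen at this number of mice.

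**Figure D3:**
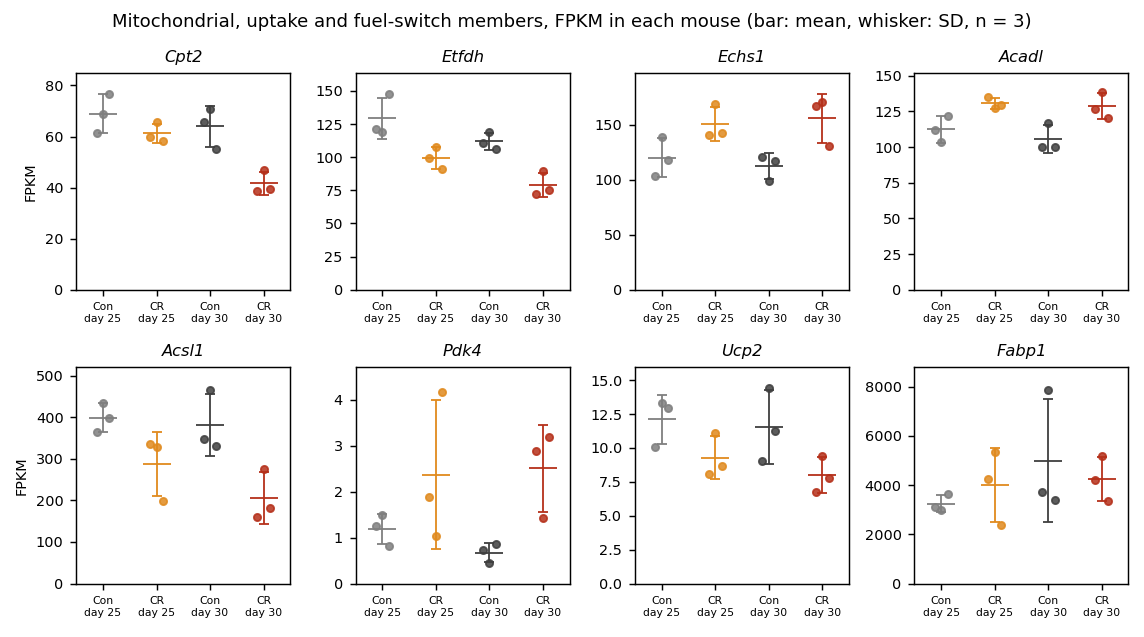
FPKM (vertical axes, from 0) of 8 members of the mitochondrial, uptake and fuel-switch classes in each mouse of the 4 groups (horizontal axes). Points are mice, the horizontal bar is the mean and the whisker the SD of 3 mice. Etfdh is lower and Echs1 and Acadl are higher in CR mice at both days, Cpt2 is clear of Con mice at day 30 only, and Fabp1 overlaps between the diets, with Con11 at 7869 FPKM.

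Uptake and activation came next. Acsl1, the main long-chain acyl-CoA synthetase of liver, was at 364, 434 and 399 FPKM in Con mice and 334, 329 and 197 FPKM in CR mice at day 25, and at 347, 466 and 330.1 FPKM in Con mice and 159, 276 and 183 FPKM in CR mice at day 30. Every CR mouse lay below every Con mouse of its day. The fall was 0.51 ± 0.23 log2 units at day 25 (adjusted p = 0.198), 0.91 ± 0.23 at day 30 (adjusted p = 0.021) and 0.71 ± 0.17 over both days (adjusted p = 0.00702), and the last 2 calls were kept whichever mouse was left out. Acsl5, another synthetase, ranged from 51.7 to 105 FPKM and was not called.

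Slc27a2, which imports and activates very long chain acids, ranged from 592 to 816 FPKM in Con mice and from 474 to 738 FPKM in CR mice. Its fall was 0.36 ± 0.13 at day 30 (adjusted p = 0.0808) and 0.23 ± 0.095 over both days (adjusted p = 0.0807). These calls were lost when any of 7 mice, or of 9 mice, was left out (adjusted p up to 0.219 and 0.166). The values were -0.40 to -0.30 and -0.29 to -0.19 over all 12 such fits. Median-ratio scaling ended both calls (-0.28, adjusted p = 0.131, and -0.17, adjusted p = 0.161). Fabp1 was at 3098, 2984 and 3632 FPKM in Con mice and 4254, 5356 and 2386 FPKM in CR mice at day 25, and at 3707, 7869 and 3382 FPKM in Con mice and 4214, 5165 and 3359 FPKM in CR mice at day 30. The diets overlapped, and the log2 fold changes were 0.23 ± 0.33 and -0.14 ± 0.33 (adjusted p = 0.715 and 0.798), the second turning to 0.24 without Con11.

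Fabp1 was the single member whose 250 bases before the start held a pair of half-sites with 1 base between them, in the form of AGGNCA repeated in the same direction with N free (1 of 39 members with a RefSeq window, 2.56%, beside 0.333% of 27025 genes). The pair of AGGTCA in that arrangement, without free letters in the half-sites, was in 0 of 39 members and 0.037% of genes, and the single half-site AGGTCA in 8 of 39 members (20.5%) and 13.8% of genes. The longer forms contain or overlap the single one. The pair in Fabp1 was found 67 bases before the start, and a further AGGTCA 9 bases before it, both on the minus strand and in capitals here. A match of letters is not a measured binding site.
Fabp1 (chr6:71199629-71199878, + strand): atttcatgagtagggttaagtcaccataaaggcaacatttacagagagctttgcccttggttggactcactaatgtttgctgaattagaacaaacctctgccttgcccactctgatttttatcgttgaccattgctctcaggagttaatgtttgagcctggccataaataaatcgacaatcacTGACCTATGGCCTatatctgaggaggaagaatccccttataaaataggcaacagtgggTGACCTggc

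Cd36, the fatty acid translocase of the cell surface, was at 12.6, 5.50 and 10.6 FPKM in Con mice and 14.1, 12.1 and 14.9 FPKM in CR mice at day 25, and at 19.1, 8.61 and 15.7 FPKM in Con mice and 16.4, 23.4 and 22.8 FPKM in CR mice at day 30. The diets overlapped at both days. It rose by 0.54 ± 0.20 log2 units over both days (adjusted p = 0.0491, and 0.101 without Con11 at 0.41), with 0.54 ± 0.29 at day 25 (adjusted p = 0.264) and 0.55 ± 0.29 at day 30 (adjusted p = 0.211). Ucp2, an uncoupling protein of the inner membrane, was at 10.1, 13.3 and 13.0 FPKM in Con mice and 8.04, 11.1 and 8.70 FPKM in CR mice at day 25, and at 9.01, 14.4 and 11.3 FPKM in Con mice and 6.79, 9.42 and 7.77 FPKM in CR mice at day 30. Here too the diets overlapped at both days.

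Ucp2 fell by 0.41 ± 0.12 log2 units over both days (adjusted p = 0.0185), by 0.35 ± 0.17 at day 25 (adjusted p = 0.225) and by 0.47 ± 0.17 at day 30 (adjusted p = 0.0813). The day 30 call was lost without Con11 (-0.31, adjusted p = 0.27), Con12 (-0.48, 0.153), CR mouse 1 (-0.37, 0.258) or CR mouse 3 (-0.46, 0.153). Median-ratio scaling (-0.40, adjusted p = 0.117) and quantile normalization (-0.39, 0.128) also ended it. Kupffer cells also express Ucp2 and Cd36. The summed Kupffer cell and macrophage markers were 39.2 to 47.6 FPKM in CR and 61.5 to 103 FPKM in Con mice at day 25. At day 30 they were 51.3 to 71.0 against 51.9 to 76.5 FPKM. The sinusoidal endothelium markers went the other way, with sums of 49.9 to 60.8 FPKM in CR and 37.9 to 58.4 FPKM in Con mice at day 25. At day 30 these sums were 52.7 to 59.5 against 39.8 to 41.7 FPKM. The part of either cell type in the Ucp2 and Cd36 results was not tested. In whole liver, fewer cells of a type and less RNA per cell cannot be told apart.

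Pdk4, the kinase that shuts pyruvate out of oxidation when fat is burned, was low, at 1.25, 1.49 and 0.828 FPKM in Con mice and 1.89, 1.03 and 4.18 FPKM in CR mice at day 25, and at 0.724, 0.450 and 0.851 FPKM in Con mice and 2.89, 1.44 and 3.20 FPKM in CR mice at day 30. The diets overlapped at day 25 and were apart at day 30. Its log2 fold change was 0.53 ± 0.29 at day 25 (adjusted p = 0.288), 1.03 ± 0.29 at day 30 (adjusted p = 0.0304, and 0.11 without CR mouse 1) and 0.78 ± 0.21 over both days (adjusted p = 0.0138). The pseudocount of 1 weighs on this gene, and voom on the recovered reads gave 1.87 at day 30 and 1.32 over both days.

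Vnn1, a pantetheinase, was at 19.8, 26.7 and 39.0 FPKM in Con mice and 27.9, 32.9 and 23.3 FPKM in CR mice at day 25, and at 21.5, 26.9 and 17.9 FPKM in Con mice and 14.0, 21.8 and 9.84 FPKM in CR mice at day 30. The diets overlapped, with log2 fold changes of 0.018 ± 0.27 and -0.56 ± 0.27 (adjusted p = 0.979 and 0.182). Acot12, the cytosolic acetyl-CoA hydrolase, was the steadiest member, between 54.1 and 63.6 FPKM in all 12 mice.

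Between the 2 days, 41 of the 48 members (85.4%) kept the sign of the CR effect, beside 80.4% of all genes, and 5 (10.4%) were called in the same direction at both (Crot, Acox2 and Etfdh lower, Acot3 and Nudt19 higher), beside 10.9% of all genes. All 17 members called at day 30 were also called over both days, a fit that holds the day 30 mice too. The days rest on different mice. A call at 1 day alone is not a difference between days. For the difference itself, the interaction term, limma called 0 members and 1 gene of 10593 (0.00944%), and 2 members had an unadjusted p under 0.05, Cpt2 (-0.44 ± 0.18) and Acot3 (1.35 ± 0.60), both with an adjusted p of 1.0. Voom on the recovered reads also called 0, with 2 members at an unadjusted p under 0.05.

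**Figure D4:**
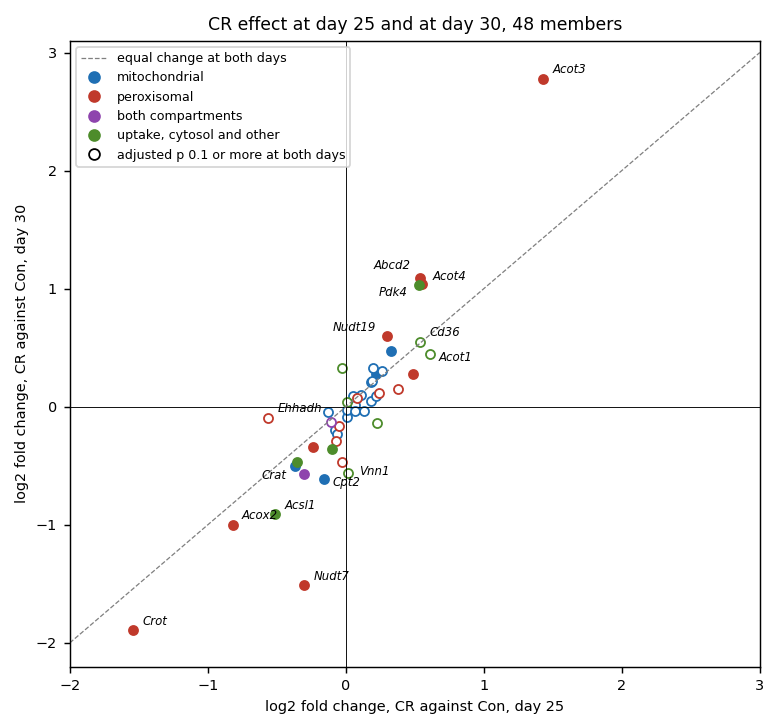
Log2 fold change of CR against Con at day 25 (horizontal axis) and at day 30 (vertical axis) for the 48 members, colored by class. Filled points have an adjusted p under 0.1 at 1 day or both, names are given where either change is at least 0.55 in size, and the dashed line marks equal change. Acot3 lies at 1.43 and 2.78 and Nudt7 at -0.30 and -1.51, and no member's difference between the days passed the test.

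Within CR mice, day 30 was compared with day 25, the step across which the study placed its transition. Limma called 0 of 48 members, beside 0.321% of all genes, and 10 members had an unadjusted p under 0.05, of which 8 were lower and 2 (Acsl5 and Nudt19) higher at day 30. The smallest was that of Crat, at 14.9, 15.3 and 14.6 FPKM in CR mice at day 25 and 6.99, 9.06 and 7.13 FPKM at day 30 (-0.88 ± 0.20, adjusted p = 0.119, and 0.0874 by voom on the recovered reads, which called it alone of the members). Con mice also had less Crat at day 30, 15.3, 13.2 and 8.24 FPKM against 15.9, 16.9 and 24.1 FPKM at day 25. Cpt2 was next, with -0.55 ± 0.12 and an adjusted p of 0.12. The 8 lower members were Crat, Cpt2, Slc27a2, Acox2, Vnn1, Etfdh, Cpt1a and Slc25a20. Each also had a lower Con mean at day 30 than at day 25. Con means went from 170 to 129 FPKM for Cpt1a, from 718 to 628 for Slc27a2 and from 68.9 to 64.0 for Cpt2. A comparison within CR mice does not separate the diet from the day. The share of all genes at an unadjusted p under 0.05 was not counted.

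Genes of the pathway outside the 48 members were counted in 5 lists. Of 17 regulators of fatty acid oxidation, 5 were higher and 0 lower at each day, and 8 were higher and 2 (Pparg and Ncor1) lower over both days, beside 5.6% higher and 9.34% lower of all genes at day 25, 8.33% and 16.4% at day 30, and 14.5% and 26.1% over both days. Lpin1, a coactivator of PPARA and phosphatidate phosphatase, rose from a mean of 40.2 ± 21.1 FPKM (SD, n = 3) to 203 ± 32.7 at day 25 and from 20.7 ± 6.10 to 175 ± 54.5 at day 30, with log2 fold changes of 2.47 (adjusted p = 0.00294) and 3.01 (adjusted p = 0.000488). Ppargc1a, a coactivator, rose by 0.74 and 1.10 (adjusted p = 0.0772 and 0.00998), Acacb, which makes the inhibitor of Cpt1 proteins, by 0.97 and 1.14 (adjusted p = 0.0199 and 0.00589), and Pdk1 by 0.45 and 0.93 (adjusted p = 0.0993 and 0.00245). Ppara itself was at 52.4 to 58.0 FPKM in Con mice and 67.9 to 95.9 FPKM in CR mice at day 25 (0.54 ± 0.15, adjusted p = 0.0469), and at 52.8 to 68.6 FPKM against 53.7 to 73.6 FPKM at day 30 (0.15 ± 0.15, adjusted p = 0.542).

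PPARA targets outside beta-oxidation moved both ways, with 3 of 14 higher and 2 lower at day 25 and 2 higher and 2 lower at day 30, beside 14.9% and 24.7% of all genes called. Plin5 and Angptl4 rose at both days (1.28 and 0.99 for the lipid droplet protein Plin5, 0.57 and 0.67 for the lipase inhibitor Angptl4), while Plin2, another droplet protein, fell by 0.72 and 0.97 and the hydroxylase Cyp4a32 by 0.94 and 1.26, each with an adjusted p under 0.1 at both days. Fgf21, a hormone of the fasted liver, was at 1.73 ± 0.621 FPKM in Con and 1.26 ± 0.502 FPKM in CR mice at day 25 and at 0.628 ± 0.668 and 0.306 ± 0.16 FPKM at day 30 (SD, n = 3), and was not called (adjusted p = 0.568 and 0.534).

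Of 32 other acyl-CoA enzymes and transporters past the filter, 3 were higher and 1 lower at day 25 and 5 higher and 5 lower at day 30, counts near the 14.9% and 24.7% of all genes, with Acot7 (0.58 and 0.42), Abcd4 (0.68 and 0.76) and Acad10 (0.39 and 0.41) higher at both. In ketone body use and export (5 genes), 2 were higher and 1 lower at day 25 and 1 higher and 2 lower at day 30. Among its monocarboxylate carriers, Slc16a7 rose by 0.55 and 0.99, Slc16a1 fell by 0.59 and 0.43, and Slc16a6 had -0.12 at day 25 (adjusted p = 0.527) and -0.36 at day 30 (adjusted p = 0.0431). Of 16 peroxisome assembly genes, none was called at day 25 and 1, Pex7, was higher at day 30, where their median log2 fold change was -0.16 beside -0.068 for all genes. At day 25, 1 of the 16 (Pex3) had an unadjusted p under 0.05 in limma, and voom on the recovered reads called 0.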

How the data were processed

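Total RNA from frozen liver was sequenced on 1 lane, and the authors demultiplexed the reads with CASAVA 1.8.2, checked them with FastQC, aligned them with BWA, which does not split reads at exon junctions, to the mm10 genome, and quantified exons with HOMER. The deposited values were FPKM, with 1 RefSeq transcript per gene and no scaling between libraries. The authors named DESeq2 for their own tests, whose results were not used here.

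With R 4.3.3 and limma 3.58.1, log2(FPKM + 1) was compared between groups (trended moderation, all 4 groups in 1 model, 2-sided), on genes that reached 1 FPKM in 3 or more libraries. Benjamini-Hochberg adjustment ran over all 10593 genes, and an adjusted p under 0.1 was called. The fit over both days took day as a covariate. Whole reads were recovered from the FPKM steps (100.0% of the low values whole within 0.1 read) for voom. Plots used matplotlib 3.10.9, and tables used numpy 2.4.6 and pandas 2.3.3 under Python 3.11.15. The fits were also run on simulated data with the same spread for every gene. The real genes differed in spread, so that run does not show how firm the calls here are.

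Members and gene lists were chosen with earlier results of these data known. Of the 24 members given mouse by mouse, 15 came from a list and 12 were those with the largest change over both days within their class, of which 9 were named for their change alone (Echs1, Acaa2, Etfdh, Acox2, Crot, Acot3, Nudt7, Acot1 and Acsl1), so their size is no separate finding. The other members were given by range or where called. The pathway lists covered regulators, other PPARA targets, other acyl-CoA enzymes, ketone body use and peroxisome assembly, and the marker lists hepatocytes, Kupffer cells, endothelium, stellate cells, cholangiocytes, lymphocytes and adipocytes. Endothelial markers were higher in CR mice for 1 of 6 genes at day 25 and 3 of 6 at day 30, stellate cell markers for 1 and 2 of 5, and cholangiocyte markers for 0 of 2 at both days, with 0 at an unadjusted p under 0.05 in limma and 0 called by voom. Replicate numbers were checked as pairs by the correlation of deviations from the group means. At day 25 the 3 pairs had 0.368, 0.306 and 0.106, and mice of different number had -0.287 to 0.0134. Neither the labels nor the paper state that Con and CR mice were paired. The block is therefore an alternative fit and not a known part of the design. At day 30 the Con columns carry no label number, and numbering by column gave 0.181, 0.0456 and 0.115. Windows of 100 bases that a member shared with other genes were counted on GENCODE transcripts. By RefSeq identifier, 47 of 48 members, all but Acot3, were matched. The members left out as near-identical copies were Acaa1a, Acaa1b and Acot1 to Acot4, a list set by name and not by these windows. Etfb (65.2% of windows shared) and Hadhb (53.2%) stayed in, and Acot4 (0.36%) was left out. Alternatives were other pseudocounts, filters, scalings, moderation, voom, the replicate block, and leaving out each mouse.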

Additional observations from a re-analysis of the deposited data

How the results depend on the processing

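Across the alternatives for the members given with values, 2051 of 2273 values kept their direction and their side of the threshold, 162 lost a call, 25 gained one and 35 turned sign. Many of these values were of members with no call. For a single day, leaving out a mouse of the other day cannot change the log2 fold change. The number kept is therefore no measure of how firm the calls are. The scalings between libraries moved the median of all genes by less than 0.1. At day 25 the 6 calls became 2 at an adjusted p under 0.05 and 2 with a 2-fold change required, and ranged from 2 to 7 when each mouse was left out, with 2 of 6 kept in every case (Acox2 and Crot). At day 30 the 17 calls became 6 with a 2-fold change and ranged from 9 to 17, with 9 kept in every case. Over both days 24 became 2 with a 2-fold change and ranged from 20 to 25, with 19 kept in every case. For day 30 against day 25 within CR, 0 became 1 with median-ratio scaling, 1 with voom and 0 to 1 when a mouse was left out. The interaction gave 0 in every alternative. Leaving out 1 mouse gained a call at day 25 for Ehhadh (without Con mouse 1), Acot4 (Con mouse 3 or Con11), Acot1 (Con mouse 3 or CR mouse 2) and Pdk4 (CR mouse 2), and at day 30 for Acaa2, Etfa and Etfb (CR mouse 3) and Vnn1 (CR mouse 2).

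The mitochondrial minus peroxisomal median ranged from -0.045 to 0.069 at day 25 and from -0.031 to 0.071 at day 30 when each mouse was left out. It was 0.14 at day 30 and 0.17 over both days with Crat and Acad11 counted as peroxisomal, and 0.14 and 0.19 without the near-identical copies. The causes were not tested.

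With the replicate block, 8 members were called at day 25 (5 higher, 3 lower), 22 at day 30 (10 and 12) and 26 over both days (15 and 11), beside 16.5%, 30.8% and 46.3% of all genes in the same fits. At day 25 the block added Acot4 and Acot1 and changed no other call. At day 30, where the columns share only a number, the block added Hadhb, Acaa2 (adjusted p = 0.0461), Etfb (0.0553), Acot1 (0.0184) and Vnn1 (0.0937), and over both days Hadhb (0.0937) and Eci2 (0.0273). With that numbering Con11 correlated best with another number (0.117).

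Signs turned for members with no call. With median-ratio scaling, Acaa1b at day 25 gave 0.0186, and at day 30 Acadm gave 0.033, Acat1 0.0444 and Bdh1 0.043. With quantile normalization, Hadha gave -0.0832 and Acat1 -0.0304 at day 25 and Fabp1 0.11 at day 30, and with TPM Hadha gave -0.0112 at day 25. When each mouse was left out, the day 25 ranges that crossed 0 were Cpt1a -0.0381 to 0.29, Hadha -0.0732 to 0.0949, Acat1 -0.00131 to 0.14, Bdh1 -0.0763 to 0.36, Acaa1b -0.28 to 0.15, Nudt7 -0.70 to 0.24, Slc27a2 -0.21 to 0.00471, Fabp1 -0.0181 to 0.56 and Vnn1 -0.21 to 0.26. Those of day 30 were Acadm -0.13 to 5.63e-05, Acat1 -0.24 to 0.15, Bdh1 -0.23 to 0.0651, Ehhadh -0.25 to 0.10, Acaa1a -0.000516 to 0.27 and Fabp1 -0.37 to 0.24.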
